A study of Mus musculus with 8 samples.

Results

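The 9 genes described here encode the adhesion molecules of the blood vessel wall that leukocytes use to leave the blood, together with one leukocyte ligand and one chemokine receptor of venules. They are the selectins Sele and Selp, the selectin ligand Selplg, the immunoglobulin-family ligands Icam1, Icam2, Vcam1 and Madcam1, the atypical chemokine receptor Ackr1 and the junction protein Pecam1. The genes were chosen by name for their known role, with earlier results of these data already known. All 9 were measured, each by 1 probe set, among 30664 named genes on the arrays.

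Colon RNA was hybridised from 8 Rag1-/- mice of strain C57BL/6, 1 array per mouse. The 3 inflamed mice had received naïve T cells and were killed with severe colitis, and the 5 control mice had received regulatory T cells (Tregs) and had non-inflamed colons. All mice lacked Rag1 and so made no mature T or B cells of their own, and the controls too carried transferred cells, so no group without transfer was compared. The transfer was done at an age of 10 weeks, and 2 to 4 months passed before the colons were taken, while the labels give ages of 4 to 5 months. The labels disagree on whether the distal colon or a strip of the whole colon was taken. The number of cells given was not stated in the sources used here.

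Leukocytes leave the blood in steps. Selectins on activated endothelium catch cells that carry the ligand PSGL-1 and let them roll, chemokines held on the vessel surface activate integrins, the integrins bind ICAM and VCAM molecules so that the cell stops, and the cell then passes between endothelial cells, where PECAM-1 takes part. In the gut the addressin MAdCAM-1 adds a tissue address, since the integrin alpha4beta7 of gut-homing lymphocytes binds it. Tumour necrosis factor (TNF) and interleukin 1 are known inducers of E-selectin, ICAM-1 and VCAM-1 on cultured endothelium, and interferon-gamma is a known inducer of ICAM-1.

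Promoter windows are shown for 3 of the genes because Icam1 is a known cytokine-induced gene that rose in these colons, while Sele, a classic target of the same cytokines, and Madcam1 did not pass the test. RefSeq's table for GRCm38.p6 holds a window, from 250 bases before to 50 bases after the gene's start, for 5 of the 9 genes (Sele, Selp, Icam1, Madcam1 and Ackr1). Each window is written along the gene's strand, and capitals mark matches to any of 3 motifs searched on both strands. The motifs were the NF-kappaB consensus, the interferon-gamma activated site TTCNNNGAA and the TATA box TATAAA.
Icam1, chr9:21015690-21015989, plus strand: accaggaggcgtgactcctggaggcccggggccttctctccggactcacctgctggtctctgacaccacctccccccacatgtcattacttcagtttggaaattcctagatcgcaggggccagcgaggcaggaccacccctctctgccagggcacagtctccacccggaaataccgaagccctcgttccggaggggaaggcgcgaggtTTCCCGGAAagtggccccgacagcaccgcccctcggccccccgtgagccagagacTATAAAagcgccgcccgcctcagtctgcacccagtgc
Sele, chr1:164047984-164048283, plus strand: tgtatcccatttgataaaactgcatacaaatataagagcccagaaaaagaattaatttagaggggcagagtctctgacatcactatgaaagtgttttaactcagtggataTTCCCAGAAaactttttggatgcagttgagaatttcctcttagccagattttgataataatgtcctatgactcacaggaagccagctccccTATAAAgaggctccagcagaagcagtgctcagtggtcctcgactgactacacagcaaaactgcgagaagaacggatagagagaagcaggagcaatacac
Madcam1, chr10:79664309-79664608, plus strand: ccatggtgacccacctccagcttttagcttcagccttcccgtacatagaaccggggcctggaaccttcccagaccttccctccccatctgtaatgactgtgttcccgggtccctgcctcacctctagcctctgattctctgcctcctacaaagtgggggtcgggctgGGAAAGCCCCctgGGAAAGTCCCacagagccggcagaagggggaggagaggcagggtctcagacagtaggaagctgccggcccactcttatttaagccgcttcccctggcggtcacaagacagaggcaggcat
The Icam1 window held 1 interferon-gamma activated site match, at -42 to -34 from the start, and 1 TATA box match, at 14 to 19 past it. The Sele window also held 1 match of each, at -140 to -132 and at -49 to -44. The Madcam1 window held 2 matches to the NF-kappaB consensus, at -83 to -74 and at -70 to -61, and no match to the other motifs. No motif match overlapped another in these windows. The Selp and Ackr1 windows held no match to any of the 3. Of all 32851 windows in the table, 8.46% held the NF-kappaB consensus, 8.3% the interferon-gamma activated site and 13.6% the TATA box. A match is a run of letters and not a shown binding site, and a window without one says only that these letters are not in it. The NF-kappaB consensus was searched as 1 strict pattern of 10 letters, so a site that departs from it is not marked. The Icam1 and Sele windows held no match to that pattern, which does not show that they lack an NF-kappaB site.

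Of the 9 genes, 3 rose in inflamed colon, none fell and 6 did not pass the test. Vcam1 and Icam1 were each close to 3-fold higher, and Selplg was 1.39-fold higher. In these deposited log2 intensities a gene is said to have risen or fallen where limma's test, adjusted by the Benjamini-Hochberg method over all 30664 genes, gave a p under 0.05. By that rule 8.08% of all genes rose and 5.04% fell. The median log2 change of the 9 genes was 0.12, beside -0.013 for all genes. The inflamed arrays lay wholly above the control arrays for the same 3 genes and overlapped the controls for the other 6. Of all genes, 12% had the inflamed arrays wholly above the controls and 9.17% wholly below, 21.2% in all. At an unadjusted limma p under 0.05 the count was also 3 of the 9, a share near the 28.5% of all genes that had such a p. Icam1 and Vcam1 also passed the threshold with at least a 2-fold rise, as 1.49% of all genes did.

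Inflamed replicate 2 was less like its group than the others were, with Pearson's r over all transcript clusters of 0.986 and 0.987 with the other inflamed arrays. Inflamed replicates 1 and 3 had an r of 0.995 with each other, and the controls 0.994 to 0.997 among themselves. Between inflamed and control arrays r was 0.980 to 0.986. Both sexes were present in each group by Xist and Y-linked transcripts, with inflamed replicate 3 and controls 3, 4 and 5 female. Colon epithelium markers were bright in every array (list mean 11.67 to 11.77 in inflamed colon and 11.49 to 11.69 in controls).

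**Figure D1:**
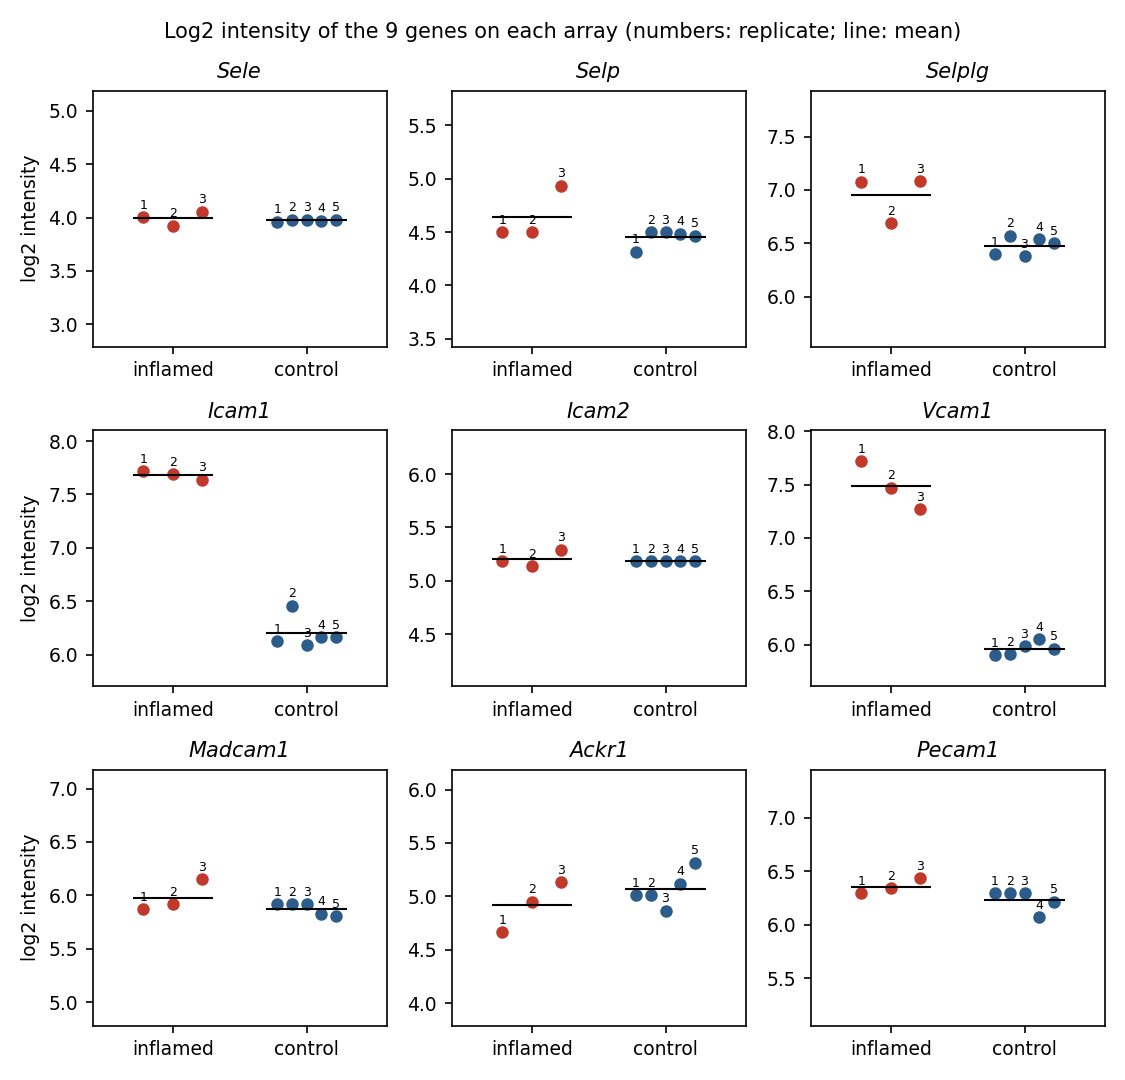
Log2 intensity of each gene on each array (vertical axis, the same span of log2 units in every panel), inflamed arrays in red on the left and control arrays in blue on the right, with the replicate number above each point and the group mean as a line. Icam1, Vcam1 and Selplg have all 3 inflamed points above the 5 control points, and the other 6 genes overlap.

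Vcam1 encodes the ligand of alpha4 integrins on lymphocytes, monocytes and eosinophils, and it is made by activated endothelium and by some stromal cells and macrophages. Its log2 intensity was 7.72, 7.47 and 7.27 on inflamed arrays 1 to 3, against 5.90, 5.91, 5.99, 6.05 and 5.96 on control arrays 1 to 5. Every inflamed array was above every control, and the inflamed arrays were spread more widely than the controls. The means were 7.49 ± 0.22 in inflamed colon and 5.96 ± 0.061 in controls (SD, n = 3 and 5). The change was 1.52 ± 0.093 log2 units (limma SE), a 2.88-fold rise (limma adjusted p = 0.000236), and 0.750% of all genes had a larger rise.

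Icam1 encodes the ligand of the beta2 integrins LFA-1 and Mac-1, found on activated endothelium and also on leukocytes, fibroblasts and inflamed epithelium. It was at 7.72, 7.69 and 7.64 on the inflamed arrays, against 6.13, 6.46, 6.09, 6.16 and 6.16 on the controls. The inflamed arrays lay within 0.1 of each other, and control 2 stood above the other controls but far under the inflamed arrays. The mean was 7.68 ± 0.039 in inflamed colon and 6.20 ± 0.15 in controls (SD, n = 3 and 5). The change of 1.48 ± 0.083 log2 units was a 2.79-fold rise (limma adjusted p = 0.000188), and 0.799% of genes rose by more.

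Selplg encodes PSGL-1, the ligand that leukocytes present to the selectins of the vessel wall. Its values were 7.08, 6.69 and 7.08 on the inflamed arrays, against 6.40, 6.57, 6.38, 6.54 and 6.50 on the controls. Inflamed replicate 2 was only just above the highest control, and replicates 1 and 3 were well above it. The rise was 0.47 ± 0.099 log2 units, or 1.39-fold (limma adjusted p = 0.0225). The call ended when any 1 of inflamed replicates 1 or 3 or controls 1, 3 or 5 was left out (adjusted p = 0.0516 to 0.083). All 8 pan-leukocyte markers rose beside it, and their mean level was 7.44 to 7.69 on inflamed arrays and 5.86 to 6.00 on controls. Among these markers Cd53, a leukocyte tetraspanin, rose by 2.74 ± 0.087, the CD45 gene Ptprc by 2.62 ± 0.14 and the actin-bundling gene Lcp1 by 1.84 ± 0.051 log2 units. These were the largest rises of the 8, whose median was 1.46 and whose smallest was 0.70, for Coro1a. The part of leukocyte number in the Selplg value was not tested. In whole tissue, more cells of a type and more RNA per cell cannot be told apart.

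The 2 endothelial selectins did not pass the test. Sele encodes E-selectin, which endothelium makes anew after cytokine exposure. It was at 4.00, 3.92 and 4.06 on the inflamed arrays, against 3.96, 3.98, 3.98, 3.97 and 3.98 on the controls, with the groups overlapping. Its difference was 0.021 ± 0.032 log2 units (95% interval -0.055 to 0.096, limma adjusted p = 0.706). All 8 values lay under 4.88, the median of all transcript clusters, which is used here as the limit of dim signal. An array compresses differences at such levels, so the interval bounds the difference of the probe set and not that of the RNA.

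Selp encodes P-selectin, which endothelium and platelets store in granules and bring to the surface within minutes. It was at 4.50, 4.50 and 4.94 on the inflamed arrays, against 4.32, 4.50, 4.50, 4.49 and 4.47 on the controls. Inflamed replicate 3 was alone above the controls and alone above the dim limit. The difference was 0.19 ± 0.11 log2 units (95% interval -0.057 to 0.44, adjusted p = 0.285 by limma), and without inflamed replicate 3 it was 0.046. The chemokine gene Ppbp, a platelet marker, was at 10.49 on that same array and at 4.25 to 4.58 on the other 7. Of the other 7 platelet markers, Itgb3, an integrin chain of platelets and other cells, was also highest there. None of the 8 measured passed the test (median log2 change -0.057). Ppbp differed by 2.06 ± 1.33 (limma adjusted p = 0.350) and by 0.044 without that array, and Treml1, a platelet receptor gene, by -0.19 ± 0.072 (limma adjusted p = 0.131), passing only relative to the pan-endothelial markers (limma adjusted p = 0.0403). The part of platelets in the Selp value was not tested.

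Icam2, Madcam1, Ackr1 and Pecam1 did not pass either. Icam2, a beta2-integrin ligand that resting endothelium carries constitutively, was at 5.19, 5.13 and 5.29 on the inflamed arrays, against the same value of 5.19 on all 5 controls. Its difference was 0.018 ± 0.036 log2 units (95% interval -0.067 to 0.10, limma adjusted p = 0.778). Madcam1, the gut addressin gene, was at 5.87, 5.92 and 6.15 on the inflamed arrays, against 5.92, 5.92, 5.92, 5.83 and 5.80 on the controls. Inflamed replicate 3 was the sole inflamed array above the controls. The Madcam1 difference was 0.10 ± 0.068 log2 units (95% interval -0.055 to 0.26, limma adjusted p = 0.354) with that array and 0.017 without it.

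Ackr1 encodes the Duffy antigen receptor, which in venules carries inflammatory chemokines across the endothelium. It was at 4.66, 4.95 and 5.13 on the inflamed arrays, against 5.01, 5.01, 4.87, 5.12 and 5.31 on the controls. The lowest array was an inflamed one and the highest a control, with overlap between them. The difference was -0.15 ± 0.13 log2 units (95% interval -0.45 to 0.15, limma adjusted p = 0.470), and -0.024 without inflamed replicate 1 or -0.26 without inflamed replicate 3. Pecam1, the CD31 gene of endothelial junctions, platelets and leukocytes, was at 6.29, 6.34 and 6.44 on the inflamed arrays, against 6.29, 6.29, 6.29, 6.07 and 6.22 on the controls. Its difference was 0.12 ± 0.062 log2 units (95% interval -0.022 to 0.27, limma adjusted p = 0.241). The intervals of Icam2, Madcam1 and Pecam1 end well under the lower bounds of 1.29 for Icam1 and 1.31 for Vcam1. Icam2 lay not far above the dim limit and held 1 value on 6 arrays, and Madcam1 and Pecam1 each held 1 value on 4. Their intervals too bound the difference of the probe set and not that of the RNA.

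**Figure D2:**
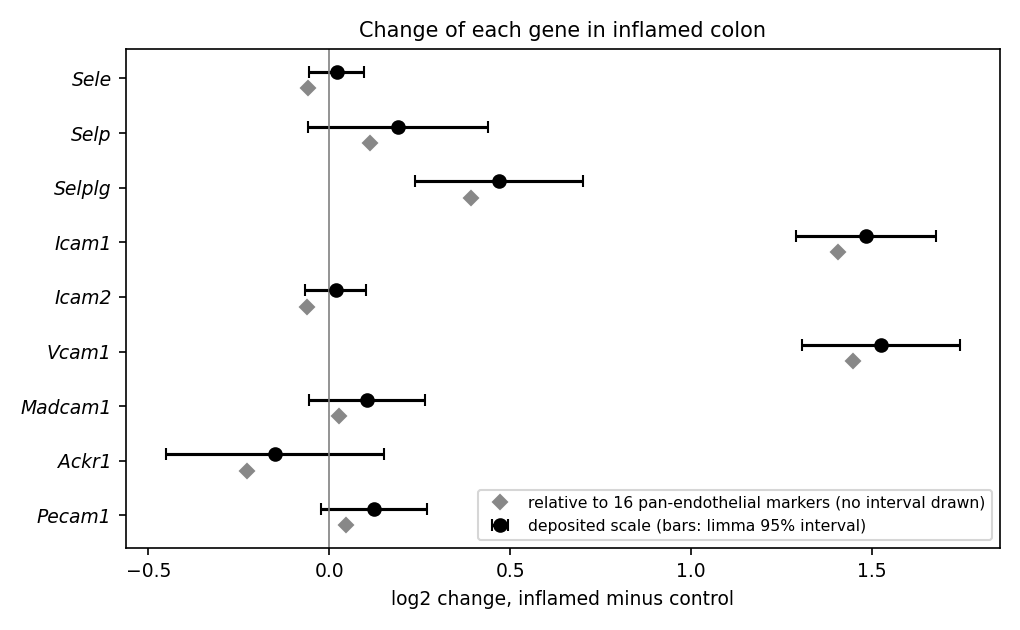
Log2 change of each gene, inflamed minus control (horizontal axis), as the limma estimate with its 95% interval (black) and as the estimate after each array's mean over 16 pan-endothelial markers was subtracted (grey diamonds). The intervals of Icam1, Vcam1 and Selplg lie above 0 and those of the other 6 genes include it.

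Arrays shared exact values for 6 of the 9 genes, which bears on their spread. The same deposited value stood on 6 arrays for Icam2, on 4 for Selp, Madcam1 and Pecam1, on 3 for Sele and on 2 for Ackr1, while Icam1, Vcam1 and Selplg had 8 different values. Over all genes, 24.6% had 4 or more arrays at 1 value and 40.4% had 8 different values. The cause of the shared values was not tested. Inflamed replicate 3 held the highest value of all 8 arrays for 6 of the 9 genes (Sele, Selp, Selplg, Icam2, Madcam1 and Pecam1), while inflamed replicate 1 was highest for Icam1 and Vcam1.

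Members of a pair of related genes changed unequally in 2 of 3 pairs compared. The within-array difference of log2 values was taken for each pair and tested with an exact two-sided permutation over all 56 ways to place the inflamed label, whose smallest p is 0.0179, with Benjamini-Hochberg adjustment over the 3 pairs. Icam1 minus Icam2 was 2.53, 2.55 and 2.35 on the inflamed arrays, against 0.94, 1.27, 0.90, 0.97 and 0.98 on the controls, so the change of Icam1 exceeded that of Icam2 by 1.46 (exact p = 0.0179, adjusted p = 0.0268). Vcam1 minus Madcam1, the alpha4 integrin ligands, was 1.85, 1.56 and 1.12 on the inflamed arrays, against -0.010, -0.0071, 0.072, 0.22 and 0.16 on the controls. The change of Vcam1 exceeded that of Madcam1 by 1.42 (exact p = 0.0179, adjusted p = 0.0268). The pairs were chosen with earlier results of these data known. Icam2 and Madcam1 differed by only 0.018 and 0.10, so these 2 results largely restate the rises of Icam1 and Vcam1. They are not separate support for those rises. For Sele minus Selp the changes differed by -0.17 and the groups overlapped (exact p = 0.0714, adjusted p = 0.0714), and with values raised to the dim limit by -0.019. With only 2 inflamed arrays left, the smallest p of this test is 0.0476 before adjustment. The adjusted p of the Icam and Vcam1 pairs was then 0.0714 without inflamed replicate 2 or 3 and 0.0476 without replicate 1, and the Sele pair was at -0.25 (adjusted p = 0.0476) without replicate 1.

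**Figure D3:**
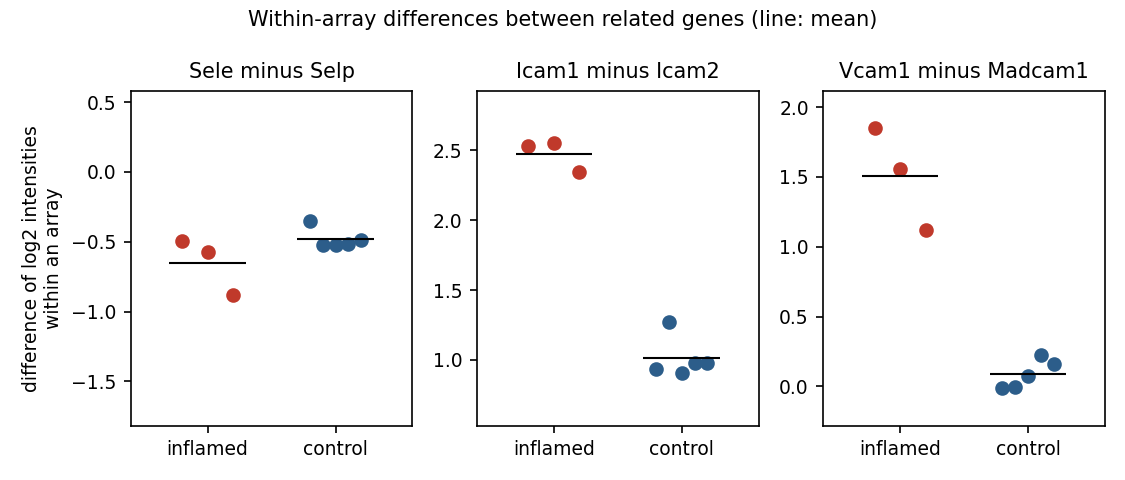
Difference of log2 intensities of 2 related genes within each array (vertical axis, the same span in each panel), inflamed in red on the left and control in blue on the right, with group means as lines. The groups are apart for Icam1 minus Icam2 and for Vcam1 minus Madcam1 and overlap for Sele minus Selp.

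Of 16 measured pan-endothelial markers 1 rose and none fell, with a median log2 change of 0.029 and list means of 5.87 to 5.99 on inflamed arrays and 5.83 to 5.88 on controls. Most of these markers lay not far above the dim limit of 4.88. Erg held 1 value on 5 arrays, and Tie1, Vwf, Esam, Robo4 and Ptprb on 4 each. The small changes are those of low probe sets and do not bound the change of endothelial RNA. The 1 that rose was Ecscr, an endothelial chemotaxis regulator, by 1.15 ± 0.039 (limma adjusted p = 4.46e-05). Eng, a TGF-beta coreceptor of endothelium, differed by 0.28 ± 0.083 (adjusted p = 0.0659 by limma). Eng passed without inflamed replicate 1, at 0.37 (limma adjusted p = 0.0298), with array medians subtracted (limma adjusted p = 0.0444) and with dim genes left out (limma adjusted p = 0.0436). With each array's mean over these markers subtracted, Icam1 was higher by 1.40 ± 0.091 (limma adjusted p = 6.42e-05), Vcam1 by 1.45 ± 0.11 (limma adjusted p = 0.000149) and Selplg by 0.39 ± 0.10 log2 units (limma adjusted p = 0.0324). The subtraction moves every gene on an array by the same amount. That amount was small beside the rises of Icam1 and Vcam1, so it could not have removed them. The other 6 genes did not pass on that scale, with differences of -0.23 for Ackr1 to 0.11 for Selp. On that scale 1858 of all genes were called higher and 3595 lower, against 2477 and 1546 on the deposited scale. The median log2 change of all genes there was -0.091, against -0.013 on the deposited scale. Ecscr, whose change was much the largest of the 16, is part of the subtracted mean and moves it. No fit without Ecscr was run, so how far these counts rest on that marker was not tested.

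Among 6 arterial markers none passed, and among 6 lymphatic endothelial markers 1 rose. Bmx differed by -0.20 ± 0.055 (limma adjusted p = 0.0546), with all values under the dim limit, and Efnb2, also made by epithelium, differed by -0.19 ± 0.073 (adjusted p = 0.134 by limma). The lymphatic list was represented by Pdpn, podoplanin, which stromal cells make too and which rose by 0.39 ± 0.10 (adjusted p = 0.0463 by limma, a call that ended under 11 of 18 alternatives), and by the hyaluronan receptor gene Lyve1 at -0.25 ± 0.17 (adjusted p = 0.361 by limma). The Lyve1 value rested on single arrays, being -0.094 without inflamed replicate 1 and -0.48 (limma adjusted p = 0.0257) without inflamed replicate 2, and it passed with array weights too, at -0.46 (limma adjusted p = 0.0301). Bmx passed without inflamed replicate 3 at -0.26 (limma adjusted p = 0.0171), with array weights and relative to the pan-endothelial markers, and Efnb2 passed on that last scale alone.

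Genes of the leukocyte side of the same contacts were examined next. Of 9 measured counter-receptor genes of the vascular ligands, 6 rose and none fell, with a median log2 change of 1.08. Itgb2, the shared chain of LFA-1 and Mac-1, rose by 2.17 ± 0.085 (limma adjusted p = 5.51e-05), 4.50-fold. Its partner chains Itgal and Itgam rose by 1.72 ± 0.12 (limma adjusted p = 0.000414) and 1.50 ± 0.26 (limma adjusted p = 0.0109). For the alpha4 integrins, named after their values were seen, Itga4 rose by 1.22 ± 0.099 (limma adjusted p = 0.000632), while Itgb7 and Itgb1 differed by 0.57 ± 0.17 (limma adjusted p = 0.0725) and 0.28 ± 0.081 (limma adjusted p = 0.0638).

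Of 16 measured genes for the synthesis of selectin ligands, 3 rose and none fell, with a median log2 change of 0.045. The galactosyltransferase gene B4galt1 rose by 0.89 ± 0.16 (limma adjusted p = 0.0129), Gcnt1, the core 2 branching enzyme of O-glycans, by 0.44 ± 0.047 (limma adjusted p = 0.00181), and Tpst2, which adds sulphate to tyrosines such as those of PSGL-1, by 0.19 ± 0.049 (limma adjusted p = 0.0438). Colon epithelium makes such enzymes too. The Tpst2 call ended under 11 of 18 alternatives.

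Of 12 measured relatives of the vessel genes, 1 rose and none fell, with a median log2 change of -0.081. Alcam, an immunoglobulin-family adhesion molecule, rose by 0.37 ± 0.071 (limma adjusted p = 0.0164, a call that ended under 3 of 18 alternatives), and the chemokine scavenger gene Ackr4 differed by -0.43 ± 0.14 (limma adjusted p = 0.0937). Ackr4 passed without control replicate 4, at -0.32 (limma adjusted p = 0.0317), and relative to the pan-endothelial markers. Of 14 genes of junctions and leukocyte docking, 2 rose and 1 fell. Cd47, a partner of leukocyte SIRP-alpha, rose by 1.11 ± 0.11 (limma adjusted p = 0.00144), and Msn, the ERM protein that ties ICAM and VCAM molecules to actin, by 1.08 ± 0.10 (limma adjusted p = 0.00117). Both are made by many cell types. The junction gene Jam3 fell by 0.20 ± 0.049 on the log2 scale (limma adjusted p = 0.0378), a call that ended under 13 of 18 alternatives, each single array left out among them.

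In the list of inducing cytokines, their receptors and transcription factors, 9 of 20 measured genes rose and none fell, with a median log2 change of 0.28. Il1b rose by 4.04 ± 0.44 (limma adjusted p = 0.00187), Il1a by 2.95 ± 0.52 (limma adjusted p = 0.0111, with all 5 controls under the dim limit; with values raised to that limit it was 2.09, adjusted p = 0.0718) and Tnf by 2.31 ± 0.23 log2 units (limma adjusted p = 0.00142). Ifng, the interferon-gamma gene, was named after its value was seen and rose by 2.01 ± 0.17 (limma adjusted p = 0.000682). Its 5 control values all lay under the dim limit. Nkx2-3, a factor that mouse Madcam1 expression needs, was named in the same way and differed by 0.072 ± 0.097 (limma adjusted p = 0.654). Nkx2-3 held 1 value on 4 arrays.

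Of 7 fibroblast markers 1 rose, Thy1 by 0.58 ± 0.081 (limma adjusted p = 0.0047), a gene that mouse T cells carry too, and Lum, the lumican gene, differed by -0.43 ± 0.27 (limma adjusted p = 0.340). With sex as a block, the Lum difference was -0.24 ± 0.083 (limma adjusted p = 0.128). Of 10 smooth muscle and pericyte markers 5 fell and none rose, with a median of -0.65 and list means of 8.62 to 8.69 on inflamed arrays and 8.94 to 9.28 on controls. Cnn1, Des and Acta2, genes of the contractile and filament apparatus, fell by 0.77, by 0.73 and by 0.73 log2 units (limma adjusted p = 0.0112, adjusted p = 0.0298 and adjusted p = 0.00799), and the Des call ended under 8 of 18 alternatives. Of 8 colon epithelium markers 1 rose, Krt20 by 0.58 ± 0.12 (limma adjusted p = 0.0199, a call that ended under 6 of 18 alternatives), and Krt18 differed by 0.21 ± 0.099 (limma adjusted p = 0.211). Of the red cell list only Alas2 was measured, at -0.050 ± 0.040 (limma adjusted p = 0.447). The part of these cells in the values of Icam1 and Vcam1 was not tested.

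**Figure D4:**
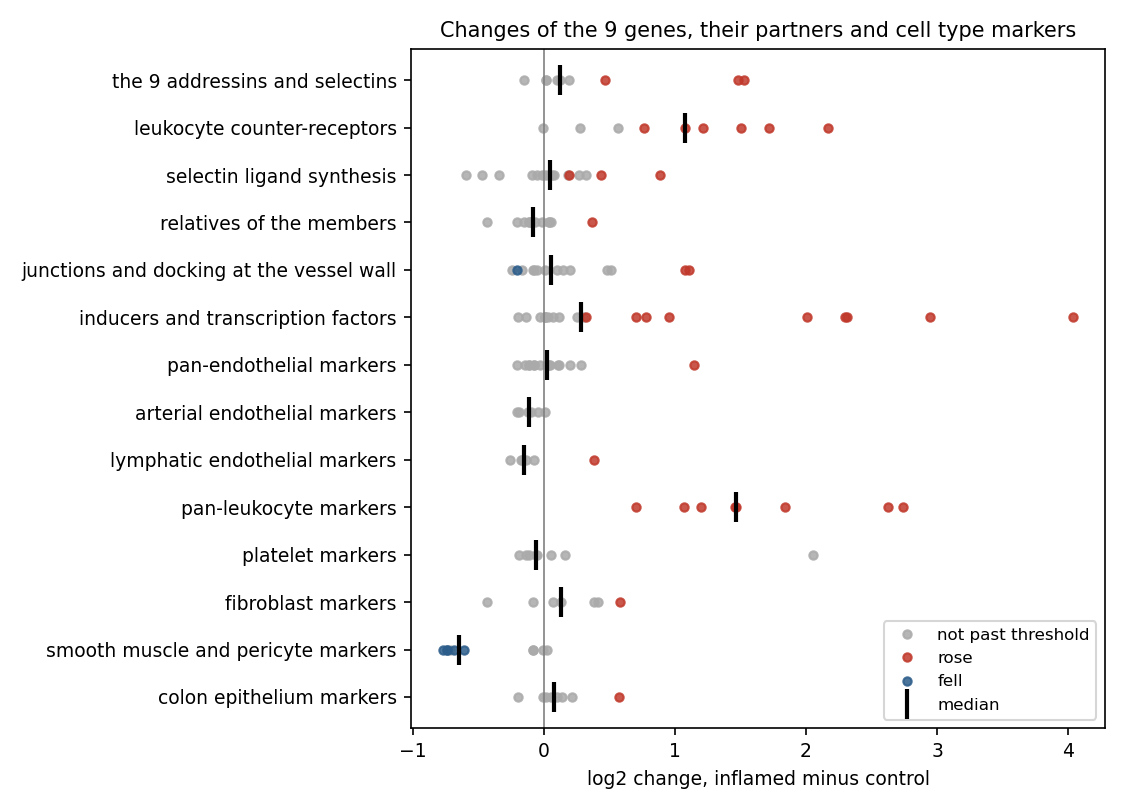
Log2 change of each gene, inflamed minus control (horizontal axis), for the 9 genes in the top row and for the lists of partners and cell type markers below, with genes that rose in red, genes that fell in blue, genes that did not pass in grey and the median as a black bar. The red cell list, with 1 measured gene, is left out. Pan-leukocyte markers all rose, while pan-endothelial markers gather near 0 apart from Ecscr.

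Across the 8 arrays, the named genes whose profiles were most like those of the risen genes, by the root mean square (RMS) difference of centred log2 values, included complement genes. For Icam1 they were C1rb, a complement C1r gene (RMS difference 0.104), and Ptafr, the receptor of platelet-activating factor (RMS difference 0.114). For Vcam1 they were C1rb (RMS difference 0.110) and C1s2, a complement C1s gene (RMS difference 0.122). For Selplg they were Vmn1r91 (RMS difference 0.0541), a vomeronasal receptor gene under the dim limit on all arrays, and Pstpip1, a leukocyte cytoskeletal adaptor (RMS difference 0.0577). These likenesses are descriptions over 8 arrays that share the split into 2 groups.

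The 3 rises had the same sign in both sexes. Between the 2 inflamed and 2 control males Icam1 differed by 1.41, Vcam1 by 1.69 and Selplg by 0.40 log2 units, and in each case the inflamed males were above the control males. Ackr1 was lower by -0.21 in the inflamed males, below both control males, and differed by 0.031 in the females. The 1 inflamed female exceeded the mean of the 3 control females by 1.50, 1.27 and 0.61 log2 units for the same genes. That female, inflamed replicate 3, was above all 3 control females for every one of the 9 genes but Ackr1. Its position was thus not particular to the risen genes. That array exceeded the mean of the control females by 0.45 for Selp, 0.30 for Madcam1, 0.24 for Pecam1, 0.11 for Icam2 and 0.080 for Sele. Between the males these 5 genes overlapped. With sex as a block, Icam1 (limma adjusted p = 0.000537), Vcam1 (limma adjusted p = 0.00101) and Selplg (limma adjusted p = 0.0381) passed, and the other 6 genes did not.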

How the data were processed

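Colon RNA of 8 mice was measured on Affymetrix arrays. Per the submitters' processing notes, the authors used Affymetrix Expression Console and RMA, and the deposited table holds log2 intensities for each probe set. The log2 scale follows from the values, which run from 1.89 to 14.6. The sources used here name no software version, setting, array model or genome build. The number of arrays limits the precision, and array medians were 4.81 to 4.91.

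The table had 72688 probe sets, 65956 of them transcript clusters. Symbols came from GEO's platform annotation and were brought up to date with RefSeq's gene table (GRCm38.p6). Among 32750 annotated probe sets, 1 symbol was given for 30604 and several symbols of a single gene for 612, while 1534 that listed different genes stayed without a name. Each of 30664 genes was represented by its brightest probe set. Inflamed and control arrays were compared with limma 3.58.1 (R 4.3.3) by lmFit and eBayes without covariates, with Benjamini-Hochberg adjustment over all genes, tested beforehand on simulated data. Gene positions are not given for array results, since the files name no build.

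The genes, the 14 lists and the tests were chosen with earlier results of these data known. Named genes are the 9, up to 3 per list past the threshold with the largest changes (the 2 largest of any where under 2 passed), and the 2 genes with profiles most like each risen gene (clone names, predicted genes and the 9 aside). The series text counts 5 control and 3 inflamed animals, so an array stands for an animal. Replicate numbers are shared between groups, but same-numbered arrays did not deviate together (r of -0.29, -0.053 and 0.068), so no pairing was used. Alternatives covered scaling, low values, probe sets, variance models, blocks and each array left out. Some could not alter a result: each of the 9 genes has 1 probe set, so averaging probe sets leaves its values as they are. Subtracting an array's median or marker mean likewise cancels in the within-array differences of the pairs. Such a subtraction shifts all genes on an array alike, by little beside the rises of Icam1 and Vcam1.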

Additional observations from a re-analysis of the deposited data

Results flagged for a closer look

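Control replicate 2 had the highest Icam1 value of the controls, 6.46, with the other 4 between 6.09 and 6.16, a gap wide for 5 samples by Dixon's criterion. All 3 inflamed arrays lay above it, at 7.64 to 7.72. Control replicate 1 had the lowest Selp value of the controls, 4.32, with the other 4 between 4.47 and 4.50, against 4.50 to 4.94 on the inflamed arrays. Chance gives such a flag in about 1 of 20 groups, and 8 of the 9 genes could be examined, since Icam2 had no spread among controls.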

How the results depend on the processing

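Of 19 alternatives, 8 of them leaving out 1 array, Icam1 and Vcam1 kept their calls under all that were run for single genes but the fit with the replicate number as a block, and Selplg lost its call in that fit and in the 5 single-array omissions named above. The replicate block, which rests on 3 numbers that do not pair the mice, left 0 of the 9 genes and 0 of all genes called by limma, with 4910 genes and 3 of the 9 at an unadjusted p under 0.05 in that fit. Its log2 changes were 1.46 for Icam1 (limma adjusted p = 0.0721), 1.55 for Vcam1 (limma adjusted p = 0.0864) and 0.50 for Selplg (limma adjusted p = 0.295). Genes called numbered 4023 on the deposited scale, 731 with at least a 2-fold change (Icam1 and Vcam1 among them), and 2508 (without inflamed replicate 1) to 4560 with 1 array left out. The share of called genes that were higher was 61.6%, 71.1% after array medians were subtracted and 34.1% relative to the pan-endothelial markers. The marker mean behind that last share includes Ecscr, the marker with the largest rise. With 1 array left out, the Sele and Selp changes differed by -0.25 to -0.056, those of Icam1 and Icam2 by 1.43 to 1.53 and those of Vcam1 and Madcam1 by 1.25 to 1.61. The 6 genes without a call gained none under any alternative run for them, and Sele and Selp were too dim for the fit that left out dim genes. The pair tests were not run with blocks, weights or a trend, which they do not use.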
